A study of Mus musculus with 12 samples.

Results

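Chromatin accessibility was mapped at the loci of Il1a, Il1b and Il1rn in mouse macrophages before and after lipopolysaccharide (LPS), the endotoxin of Gram-negative bacteria. The assay was ATAC-seq, in which a transposase cuts open chromatin and tags it for sequencing, so that accessible DNA gathers reads into peaks. The loci were taken as 2 windows of chromosome 2 in the mm9 build. One, at 129100000 to 129230000 (130 kb), holds Il1a and Il1b, and the other, at 24150000 to 24240000 (90 kb), holds Il1rn. All peaks of the 12 deposited lists inside the windows were taken and chained into regions where they overlapped by at least 1 bp. This gave 140 peaks in 19 regions for Il1a and Il1b and 153 peaks in 18 regions for Il1rn, in all 37 of the 115231 regions of the series. Regions are numbered along the chromosome as AB1 to AB19 and RN1 to RN18. Gene annotation of the mm9 build was not used here, so no region is called a promoter, an intron or an enhancer of these genes.

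The macrophages were grown from bone marrow of female C57BL/6 mice, either wild type (WT) or knockout (KO) for the long noncoding RNA lincRNA-EPS, for 9 days with 20% L929 supplement. Each genotype was given LPS at 100 ng/ml for 0, 2 or 6 h, with 2 libraries (replicates 1 and 2) in each of the 6 groups and 50000 cells per reaction. The title of the study calls lincRNA-EPS a brake on inflammation, and its design sets open chromatin with and without this RNA side by side during LPS. The labels do not say how many mice gave the libraries of a group or how the knockout was made. The peak names in the lists labelled 2 h read 1 h, and the labelled time is used. Neither the deleted locus nor macrophage marker loci were placed in these lists, so genotype and cell type stand as labelled.

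Il1a and Il1b encode interleukin-1 alpha and interleukin-1 beta, the founding ligands of the interleukin-1 family, which signal through the same receptor and drive fever and leukocyte recruitment. Resting macrophages make little of either, and LPS acting through Toll-like receptor signalling and NF-kB induces both. Il1rn encodes the interleukin-1 receptor antagonist, which occupies that receptor without signalling and so limits the action of both ligands. In the RefSeq annotation of another build, used here for gene order alone, Il1a and Il1b are direct neighbours on the minus strand, with Ckap2l next to Il1a. There Il1rn lies on the plus strand between Il1f10 and Psd4.

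The promoters of the 3 genes are shown with the DNA words, of factors of the LPS response and of macrophages and of the TATA box, that were searched in them. Each is the 250 bases before the annotated start, 5′ to 3′ on the gene's own strand (minus for Il1a and Il1b, plus for Il1rn), from RefSeq for GRCm38.p6. Capitals mark the motifs searched on both strands, with any overlap allowed: GGGNNNNNCC for NF-kB, TTGCNNAA for C/EBP, GAGGAA for PU.1 and other ETS factors, TGANTCA for AP-1 and TATAAA for a TATA box. Il1rn has 3 starts in that table and the sequence before its first is printed.
Il1a: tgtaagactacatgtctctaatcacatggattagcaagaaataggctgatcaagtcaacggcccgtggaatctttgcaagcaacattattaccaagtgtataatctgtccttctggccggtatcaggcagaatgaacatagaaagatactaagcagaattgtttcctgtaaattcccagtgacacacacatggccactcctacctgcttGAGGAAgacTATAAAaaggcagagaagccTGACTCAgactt
Il1b: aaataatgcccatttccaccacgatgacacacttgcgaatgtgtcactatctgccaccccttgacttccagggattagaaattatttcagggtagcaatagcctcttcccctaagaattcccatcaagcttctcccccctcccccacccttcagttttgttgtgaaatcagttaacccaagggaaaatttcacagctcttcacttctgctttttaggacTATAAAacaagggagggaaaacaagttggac
Il1rn: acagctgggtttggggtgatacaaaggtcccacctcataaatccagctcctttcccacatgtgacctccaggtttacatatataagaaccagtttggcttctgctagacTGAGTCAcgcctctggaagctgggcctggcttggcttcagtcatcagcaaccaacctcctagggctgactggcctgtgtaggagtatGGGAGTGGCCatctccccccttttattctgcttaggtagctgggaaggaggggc
Il1a and Il1b each held TATAAA, beginning 32 and 31 bases before the start, and 12.4% of 32851 promoters of the same length held it. Il1a also held GAGGAA at 41 bases and TGACTCA at 12 bases, against 23.3% and 6.75% of promoters with these motifs. The first Il1rn promoter held TGAGTCA at 141 bases and GGGAGTGGCC at 54 bases, and the NF-kB word occurred in 45.8% of all promoters. Of the other Il1rn starts, 1 had the NF-kB word GGGTTTTTCC at 51 bases. No C/EBP word lay in the printed windows (9.56% of promoters held one). A match is a description of the letters, and these sequences could not be placed on the mm9 regions.

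The 12 lists held 54771 to 91610 peaks. Read totals are unknown here, but the deposited fold and p of each peak give back a whole-number read coverage at its summit and the local background it was tested against. The lowest background in a library, its background coverage, ran from 1.43 reads (KO 0 h replicate 2) to 3.35 (KO 6 h replicate 1). A region missing from a shallow list can be open below the calling limit. Every library called 15 of the 37 regions (40.5%), against 37.2% of all regions, with 8 in the Il1a and Il1b window and 7 in the Il1rn window. A further 4 were called in 11 libraries, 4 in 1 library and the rest in between, as the plot of called peaks shows.

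**Figure D1:**
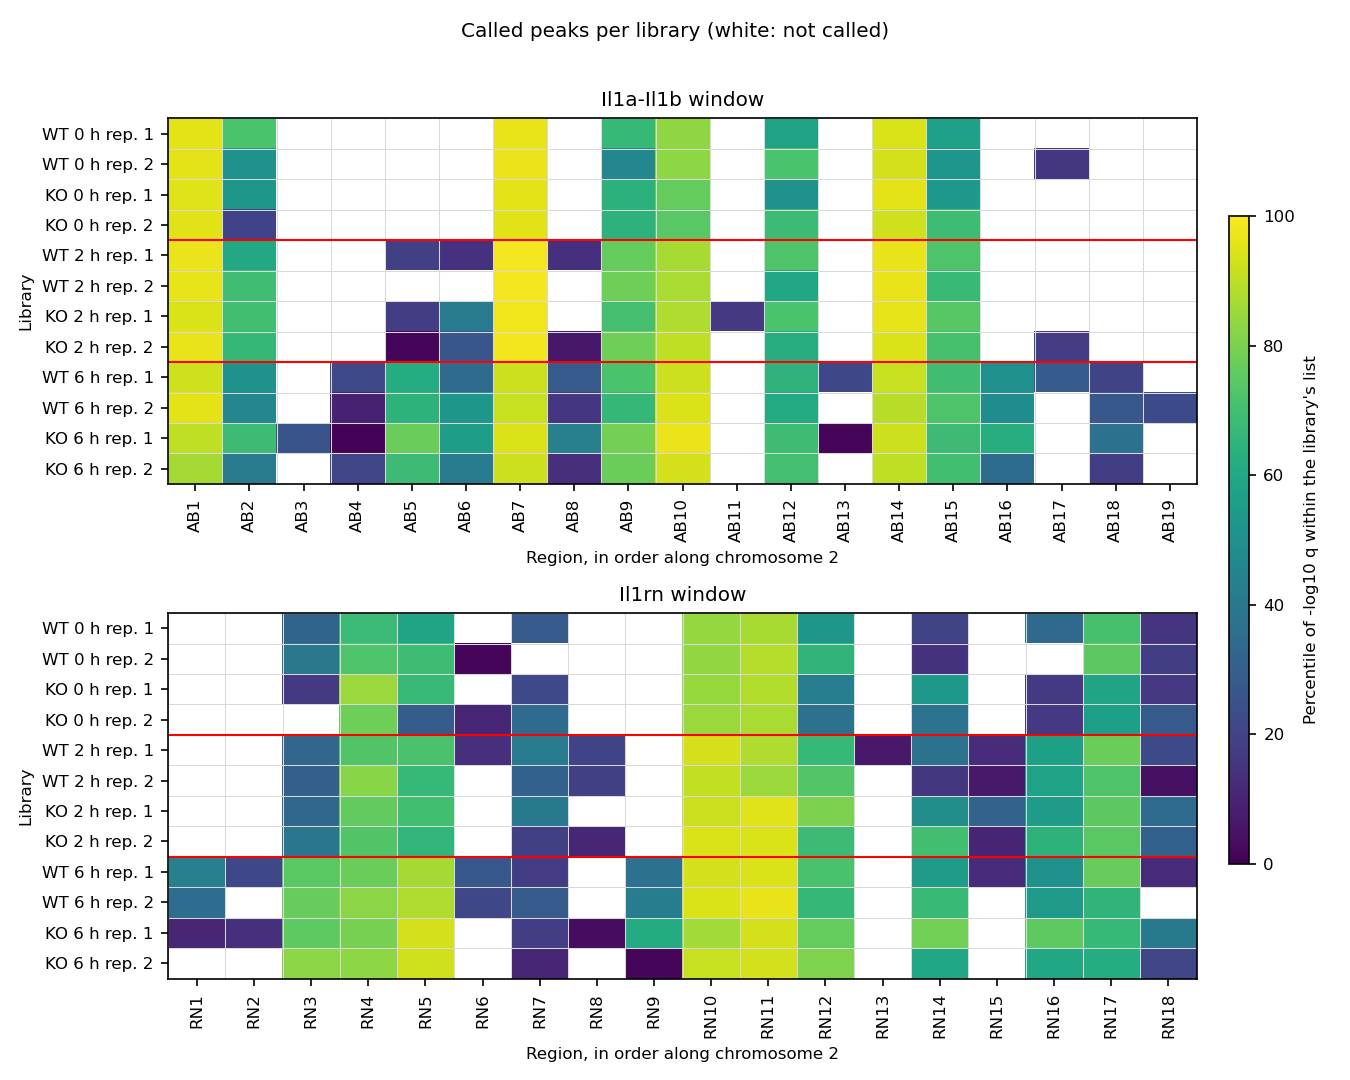
Calls at the 37 regions, with regions in chromosome order on the horizontal axis and the 12 libraries on the vertical axis, red lines parting 0, 2 and 6 h. Colour is the percentile of the peak's −log10 q within its own list and white means no call. White cells at 0 h and coloured cells in all 4 libraries at 6 h mark 6 regions among AB1 to AB19 and 1 among RN1 to RN18.

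Around Il1a and Il1b, regions without a call at rest were called by 6 h of LPS. AB4, AB5, AB6, AB8, AB16 and AB18 had 0 of 4 calls at 0 h and 4 of 4 at 6 h, that is 6 of the 19 regions, while 5.54% of all regions followed this pattern. In the Il1rn window 1 of 18 regions, RN9, did so, which is near that background. No region of either window was lost by 6 h or by 2 h, and 0.127% and 0.00434% of all regions were. These counts have no test. Depth also differed between the times, with background coverage of 1.43 to 2.51 reads at 0 h and 2.17 to 3.35 at 6 h. Calls at equal list lengths and after thinning are given below.

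AB4, AB5 and AB6 lie side by side, centred at −10.2, −8.50 and −4.13 kb from the centre of AB7, the region of the window with the highest coverage at rest. Values are given first as summit coverage in percent of the library's median over the 42811 regions called in every library, for WT replicates 1 and 2 and then KO replicates 1 and 2. AB5, at 129137108 to 129137805, stood at 102%, 108%, 130% and 120.4% at 6 h. At 2 h it was called in 3 libraries, at 33.3% in WT replicate 1 and 39.7% and 30.0% in KO. All 4 libraries at 6 h were thus above the 3 that called it at 2 h. AB6, at 129141538 to 129142105, stood at 87.3%, 111%, 111% and 104% at 6 h. Its 3 calls at 2 h were at 51.5%, 79.3% and 63.3%, again below every library at 6 h. WT 2 h replicate 2 lacked both. AB4, at 129135596 to 129135938, was weaker, at 60%, 49.1%, 45.7% and 61.2% at 6 h with no call before. Its deposited folds, 2.38 to 3.42, were among the lowest of the windows.

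The other gained regions, AB8, AB16 and AB18, lay on less local background at 6 h, the coverage expected around a peak. It was 72.1% to 92.7% of the library median at AB8 and 39.7% to 47.3% at AB16 and AB18, against 140.0% to 269% at AB4, AB5 and AB6. At AB18 each library stood at its own background coverage, 2.67, 2.18, 3.35 and 2.17 reads, the lowest value of its list. AB16 lay near that floor, at a mean of 2.77 reads. The folds of both regions thus divide by a value at or near the lowest of the list. AB8, at 129154039 to 129154390, had 43.6%, 39.6%, 55.7% and 42.9% at 6 h, and 33.3% and 35% in the WT replicate 1 and KO replicate 2 libraries that called it at 2 h. AB16, at 129213300 to 129213995, had 47.3%, 45.3%, 55.7% and 40.8% at 6 h and no call before. Its folds of 7.36, 7.53, 8.70 and 6.03 were the highest of the gained regions, at the 35.4 to 62.2 percentile of −log10 q within their lists. AB18, at 129227128 to 129227536, had 30.9%, 32.1%, 35.7% and 30.6% at 6 h. AB5, AB6 and AB16 were gained also when every list was held to its best 54771 peaks, where 3.34% of all regions were gained, while AB4 and AB18 then had 0 calls at 6 h and AB8 had 1. Thinning every library to the background coverage of the shallowest left AB4 and AB18 with 3 of 4 calls at 6 h.

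The window of Il1a and Il1b held 8, 10, 9 and 9 peaks at 0 h (WT replicates 1 and 2, then KO), 11, 8, 11 and 13 at 2 h and 16, 15, 16 and 14 at 6 h. Every library at 6 h had more than every library at 0 or 2 h. The mean at 6 h, 15.25 ± 0.96 (SD, n = 4 libraries), was 1.69 times that at 0 h, 9.00 ± 0.82, against 1.33 times for whole lists. Per 10000 peaks of a library's own list the ratio was 1.27. The Il1rn window held 11, 10, 12 and 11 peaks at 0 h, 15, 13, 12 and 13 at 2 h and 16, 13, 15 and 12 at 6 h, a ratio of 1.27 between 6 and 0 h, and 0.953 per 10000 peaks. Covered length was 6239 ± 389 bp at 0 h and 9620 ± 470 bp at 6 h in the first window, and 4905 ± 559 and 7307 ± 747 bp in the second, described without a test.

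**Figure D2:**
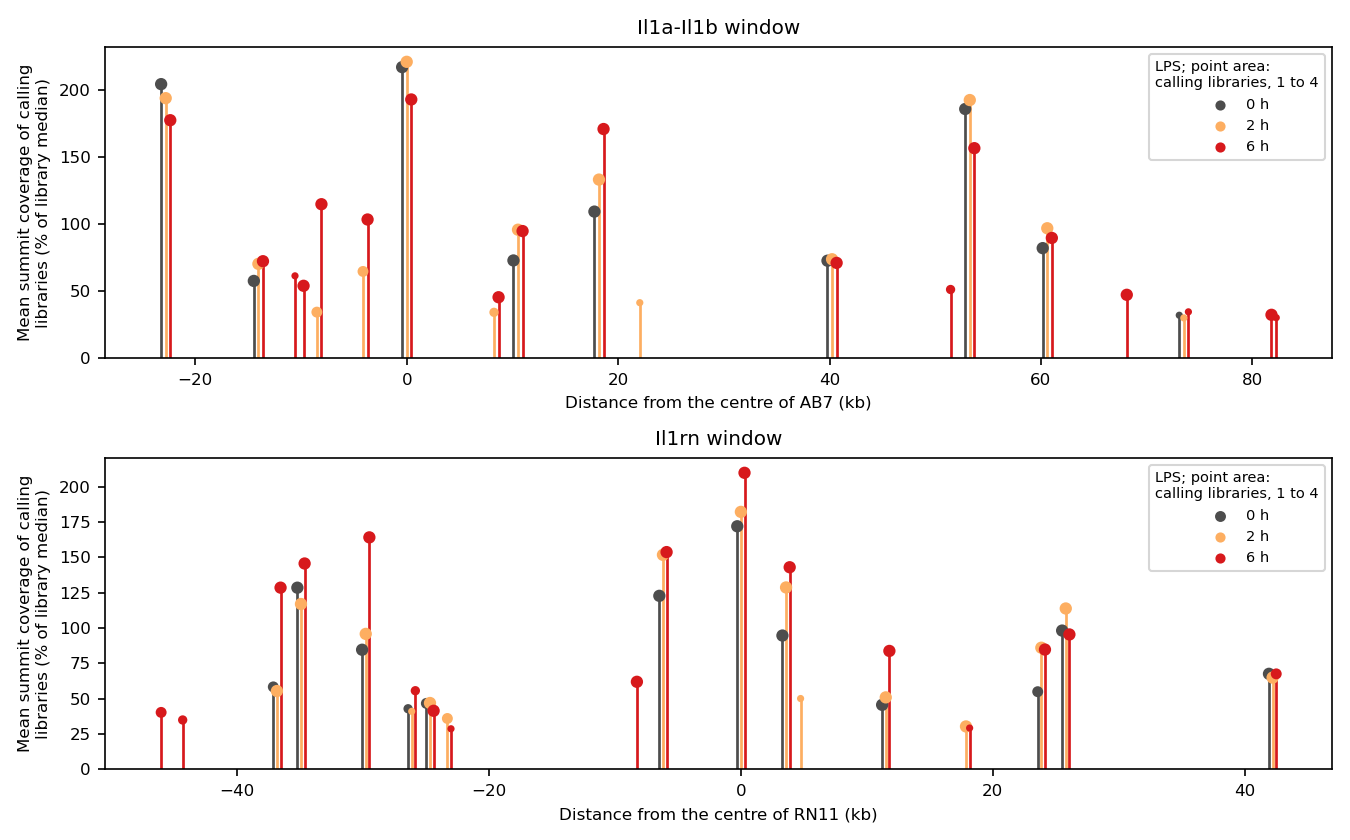
Mean summit coverage of the libraries that call a region, in percent of the library median, against the distance of the region's centre from that of AB7 (upper panel) or RN11 (lower panel) in kb. Grey, orange and red stand for 0, 2 and 6 h of LPS, drawn slightly apart, and point area for the number of calling libraries. In the upper panel the tallest red points without a grey one are AB5 and AB6, at −8.50 and −4.13 kb, and others lie at −11 to 81.8 kb, and the tallest red point of the lower panel is RN11.

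Within the 8 regions open in every library around Il1a and Il1b, 2 gained and 2 lost coverage by 6 h. The test was limma on log2 summit coverage scaled to the library median, over all 42811 such regions with Benjamini-Hochberg adjustment, both genotypes together. Higher calls made up 14.7% of all regions tested and lower calls 23.8%, so 2 of 8 in each direction is near the background. The median change was 0.07 on the log2 scale in these 8 and −0.07 over all regions.

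AB10, at 129163698 to 129164592, changed most. Its coverage was 120.0% and 114% in WT and 97.6% and 106% in KO at 0 h, then 123%, 133%, 136% and 142% at 2 h, and 158%, 174%, 177% and 176% at 6 h, replicates and genotypes in the same order. All libraries at 6 h stood above all at 2 h, and all at 2 h above all at 0 h. The rise by 6 h was 0.65 on the log2 scale (SE 0.094, limma adjusted p = 6.4e-08), or 1.57-fold. By 2 h it was 0.29 (SE 0.094, adjusted p = 0.063) and did not pass the test. WT alone rose by 0.50 (SE 0.13, adjusted p = 0.0037) and KO alone by 0.79 (SE 0.13, adjusted p = 5.5e-06).

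AB9, at 129156013 to 129156950, lies at 10.5 kb from AB7. It had 78.0%, 52.0%, 73.8% and 87.9% at 0 h, 93.9%, 102%, 84.5% and 103% at 2 h, and 85.5%, 83.0%, 103% and 108% at 6 h. Its range at 6 h overlapped that at 0 h through 1 library, KO 0 h replicate 2. It rose by 0.40 (SE 0.14, limma adjusted p = 0.017). At 2 h the change was 0.42 (SE 0.14, adjusted p = 0.067). Leaving out WT 0 h replicate 2, its lowest library, KO 0 h replicate 1 or KO 6 h replicate 2 lost the call at 6 h.

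The 2 regions that fell were among the strongest of the window. AB1, at 129122534 to 129123779, had 200%, 198%, 202% and 218% at 0 h. The values were 197%, 202%, 184% and 193% at 2 h. At 6 h it had 171%, 202%, 169% and 169%, with WT replicate 2 at the level of 0 h. It fell by 0.21 on the log2 scale (SE 0.078, limma adjusted p = 0.028). AB14, at 129198773 to 129199670, had 180.0%, 174%, 202% and 188% at 0 h, 192%, 205%, 193% and 180.0% at 2 h and 162%, 149%, 157% and 159% at 6 h. All libraries at 6 h lay below all others. AB14 fell by 0.25 (SE 0.080, adjusted p = 0.011). The call at AB1 was lost without either WT library at 0 h, WT 6 h replicate 1 or KO 0 h replicate 2, and that at AB14 without WT 6 h replicate 2. Both falls kept their direction and missed the threshold when libraries were scaled to background coverage or quantile-normalized.

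AB7, at 129145542 to 129146369, had the highest coverage of the window at 0 h, 212%, 208%, 219% and 230.3%. At 2 h it had 215%, 233%, 221% and 217%, and at 6 h 187%, 191%, 193% and 202%. Every library at 6 h was below every library at 0 h, but the change of −0.17 (SE 0.073, limma adjusted p = 0.059) did not pass. AB2, AB12 and AB15 did not pass either, with changes of 0.35 (SE 0.17), −0.02 (SE 0.16) and 0.15 (SE 0.13). AB2, at 129131638 to 129132205, had 80.0%, 54.0%, 57.1% and 39.4% at 0 h, 57.6%, 78.2%, 72.4% and 73.3% at 2 h and 70.9%, 60.4%, 92.9% and 65.3% at 6 h. In KO alone it rose by 0.71 (SE 0.24, adjusted p = 0.020), from 57.1% and 39.4%, the latter in the shallowest library. AB12, at 129185664 to 129186736, had 66.0%, 86.0%, 57.1% and 81.8% at 0 h, 77.3%, 61.8%, 86.2% and 70.0% at 2 h and 72.7%, 64.2%, 70.0% and 77.6% at 6 h. AB15, at 129205882 to 129207226, had 74.0%, 74.0%, 71.4% and 109% at 0 h, 98.5%, 92.7%, 102% and 95% at 2 h and 87.3%, 94.3%, 81.4% and 95.9% at 6 h. Both overlapped across all times.

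**Figure D3:**
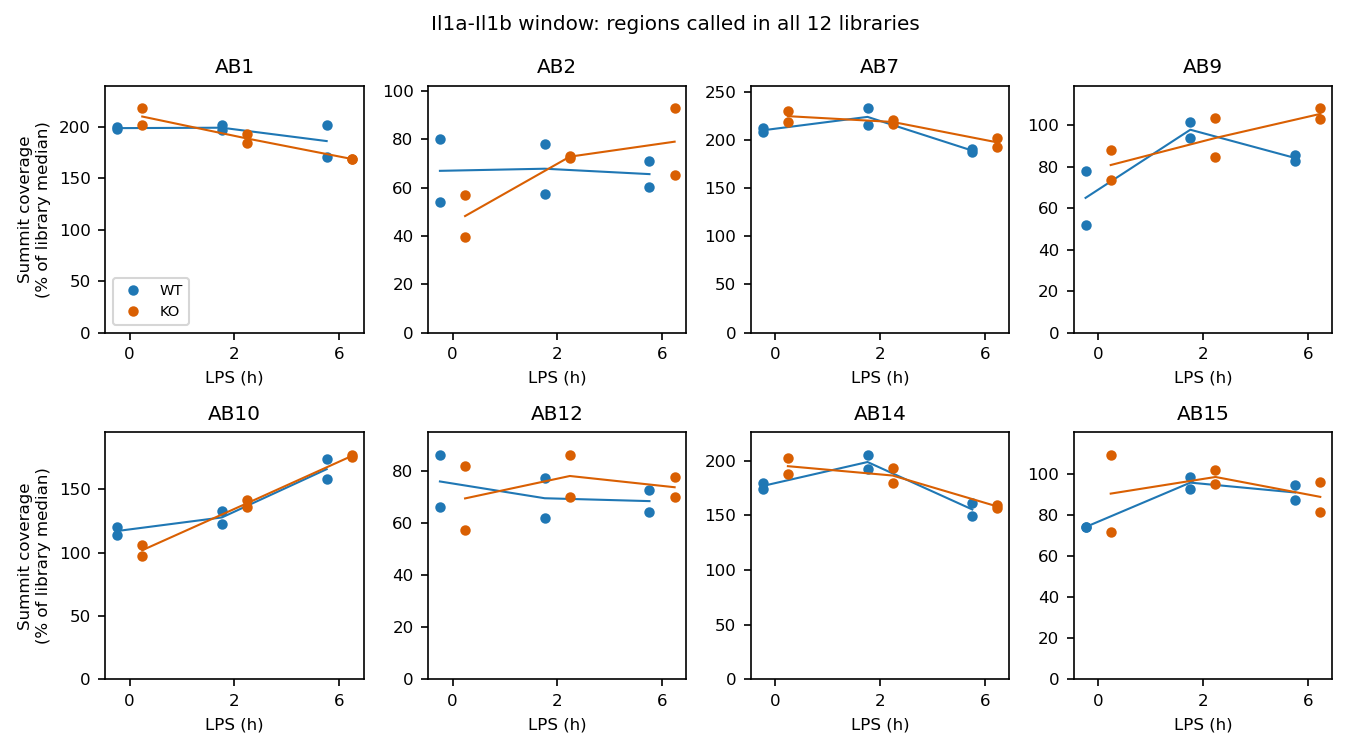
Summit coverage, in percent of the library median, at 0, 2 and 6 h of LPS for the 8 regions of the Il1a and Il1b window called in all 12 libraries. Points are libraries, blue for WT and orange for KO, and lines join the means of 2. AB10 climbs from 97.6 to 120.0% at 0 h to 158 to 177% at 6 h, and AB14 is lowest at 6 h, at 149 to 162%.

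Around Il1rn, 5 of the 7 regions open in every library gained coverage by 6 h and none fell, against the 14.7% and 23.8% of all regions given above. The median change was 0.32 on the log2 scale. These were RN5, RN10, RN11, RN12 and RN14.

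RN5, at 24167086 to 24167751, rose most, by 0.97 (SE 0.12, limma adjusted p = 3.6e-10), or 1.96-fold. It had 76.0%, 98.0%, 97.6% and 66.7% at 0 h, 95.5%, 92.7%, 102% and 93.3% at 2 h, and 147%, 155%, 167% and 188% at 6 h. No library at 6 h overlapped those at 0 or 2 h, and the change by 2 h, 0.20 (SE 0.12, adjusted p = 0.38), did not pass. RN14, at 24208324 to 24209077, rose by 0.91 (SE 0.18, adjusted p = 3.0e-05). It had 34.0%, 34.0%, 59.5% and 54.5% at 0 h, 42.4%, 29.1%, 53.4% and 78.3% at 2 h and 67.3%, 88.7%, 101% and 77.6% at 6 h. All libraries at 6 h were above all at 0 h.

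RN12 and RN10 had risen by 2 h. RN12, at 24200490 to 24201076, had 92.0%, 116%, 85.7% and 84.8% at 0 h, 111%, 131%, 152% and 122% at 2 h and 140.0%, 128%, 139% and 165% at 6 h. It rose by 0.45 at 2 h (SE 0.11, limma adjusted p = 0.0065) and by 0.60 at 6 h (SE 0.11, adjusted p = 6.6e-06). RN10, at 24190634 to 24191389, had 116%, 118%, 124% and 133% at 0 h, 148%, 145%, 152% and 162% at 2 h and 158%, 170%, 130% and 157% at 6 h. Every library at 2 h was above every library at 0 h, while KO 6 h replicate 1 lay within the range at 0 h. The rises were 0.31 at 2 h (SE 0.092, adjusted p = 0.040) and 0.32 at 6 h (SE 0.092, adjusted p = 0.0041). By 2 h, 2.56% of all regions tested were called higher and 1.58% lower, and 2 of 7 around Il1rn and 0 of 8 around Il1a and Il1b were higher. In the latter window 2 regions had an unadjusted p under 0.05, AB9 and AB10. With an exact permutation test and the same adjustment, 0 regions of either window passed at 2 h. That test exchanged the labels of 0, 2 and 6 h within a genotype, so libraries at 6 h entered it too. RN10 and RN12 were also higher at 6 h, so its result does not decide their rises by 2 h. With limma, 0 regions around Il1rn passed when WT 0 h replicate 1, WT 2 h replicate 2 or the first KO library at 2 h was left out.

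RN11, at 24196828 to 24197566, had the highest coverage of this window, 162%, 172%, 179% and 176% at 0 h, 161%, 158%, 210.3% and 200% at 2 h and 211%, 230.2%, 189% and 210.2% at 6 h. It rose by 0.28 by 6 h (SE 0.078, limma adjusted p = 0.0026), with all libraries at 6 h above all at 0 h. RN4, at 24161899 to 24162650, had 100.0%, 114%, 155% and 145% at 0 h, 105%, 131%, 124% and 108% at 2 h and 133%, 157%, 134% and 159% at 6 h, a change of 0.20 (SE 0.10, adjusted p = 0.12). RN17, at 24222538 to 24223440, had 106%, 110.0%, 85.7% and 90.9% at 0 h, 114%, 113%, 117% and 112% at 2 h and 113%, 90.6%, 88.6% and 89.8% at 6 h. Its change of −0.04 had a 95% interval of −0.27 to 0.19.

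**Figure D4:**
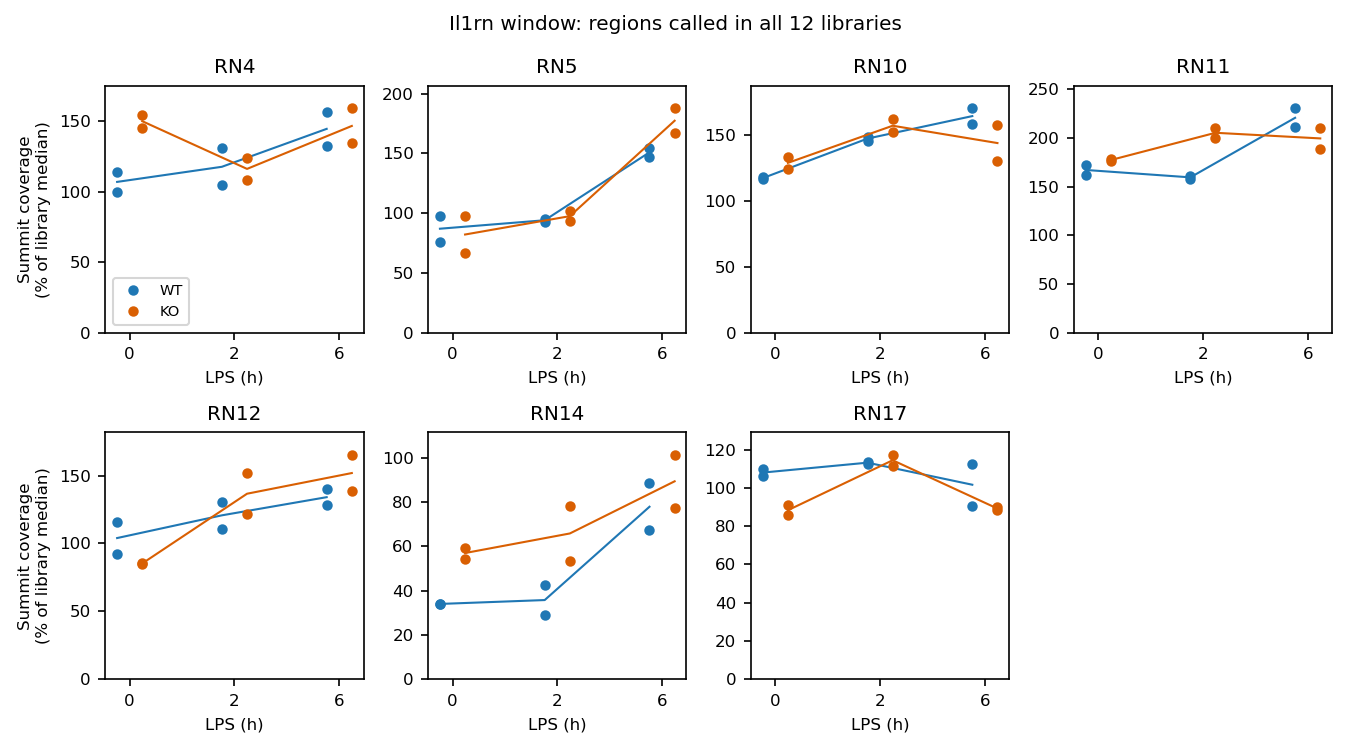
Summit coverage, in percent of the library median, at 0, 2 and 6 h of LPS for the 7 regions of the Il1rn window called in all 12 libraries. Points are libraries, blue for WT and orange for KO, and lines join the means of 2. RN5 lies at 66.7 to 98.0% at 0 h and 147 to 188% at 6 h, and RN14 is the weakest region, at 34.0% in both WT libraries at 0 h.

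RN3, at 24159994 to 24160732, was missed in KO 0 h replicate 2 and so was not tested. It was chosen for description after its values were seen. It had 56.0%, 64.0% and 54.8% in the other libraries at 0 h, 51.5%, 54.5%, 56.9% and 58.3% at 2 h, and 118%, 132%, 117% and 147% at 6 h. Those at 6 h were well apart from all others. RN16, at 24220744 to 24221346, also called in 11, spanned 50.0% to 60% before LPS, 77.3% to 95% at 2 h and 72.7% to 103% at 6 h.

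RN9, the region gained by 6 h, lies at 24188424 to 24188884, at −8.54 kb from RN11. It had 58.2%, 64.2%, 84.3% and 40.8% of the library median at 6 h, with folds of 4.44, 4.79, 5.56 and 3.01, and no call at 0 or 2 h. KO 6 h replicate 2 stood lowest, at the 1.8 percentile of its list. RN15, at 24214849 to 24215289, went from 0 of 4 calls at 0 h to 4 of 4 at 2 h, a pattern of 0.789% of all regions. It was weak, at 25.8%, 25.5%, 39.7% and 30.0%, and at 6 h it was called in WT replicate 1 alone, at 29.1%. When every list was held to its best 54771 peaks, RN15 kept 1 call at 2 h.

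The remaining regions were weak or partly called. RN7 and RN18 were called in 11 libraries, at 38.1% to 57.6% and 54.5% to 77.1% of the library median. AB17 was called in 3 libraries, 1 at each time, at 30.0% to 34.5%. AB13, RN1 and RN2 were called at 6 h alone, in 2, 3 and 2 libraries, and RN8 in 3 libraries at 2 h and 1 at 6 h. AB3, AB11, AB19 and RN13 were each called in 1 library, AB3 and AB19 at 6 h and AB11 and RN13 at 2 h.

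Local background, the coverage expected around a peak against which the caller tested its summit, rose more widely than the summits did. This measure was chosen after the data were seen, the sources used here do not state the length over which the caller took it, and neighbouring regions can share reads in it. Fitted in the same way, it rose by 6 h at 7 of the 8 regions around Il1a and Il1b and at 7 of 7 around Il1rn, against 18.6% of all regions tested higher and 28.5% lower. AB2 changed most. Its local background was 48.5%, 46.6%, 47.4% and 44.0% of the library median at 0 h, 47.9%, 57.7%, 47.3% and 59.5% at 2 h and 109%, 89.5%, 120% and 111% at 6 h. That is a rise of 1.2 on the log2 scale (SE 0.098, limma adjusted p = 7.2e-10), with no overlap between 6 h and the earlier times. At 0 h, WT replicate 2 and KO replicate 2 stood at their library's background coverage, 2.51 and 1.43 reads. That is the lowest value of a list, so the spread at 0 h is limited from below, and with it the SE and p. AB2 lies at −14.0 kb from AB7, next in order to AB3 and the gained region AB4.

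Elsewhere in that window the rises were 0.82 at AB10, 0.64 at AB9, 0.42 at AB7, 0.35 at AB1, 0.21 at AB12 and 0.17 at AB14, with limma adjusted p from 3.4e-08 at AB10 to 0.040 at AB12. At AB12 the ranges overlapped, at 44.4% to 59.85% of the library median at 0 h and 59.6% to 67.9% at 6 h. Its lowest library, KO 0 h replicate 2, lay near its own background coverage. AB15 changed by 0.09 (SE 0.090, adjusted p = 0.43). Around Il1rn they ran from 0.19 at RN17 (SE 0.072, adjusted p = 0.030) to 0.87 at RN14 (SE 0.10, adjusted p = 2.9e-07). At 0 h RN14 had a mean of 2.285 reads, also near the background coverage of those libraries, 1.43 to 2.51 reads. By 2 h the local background had risen at AB9, AB10, RN10 and RN17, where 2.65% of all regions were higher and 1.99% lower. At 11 of the 15 regions the change of local background by 6 h exceeded that of the summit, the exceptions being AB15, RN5, RN12 and RN14. The same held at 52.3% of all regions tested.

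**Figure D5:**
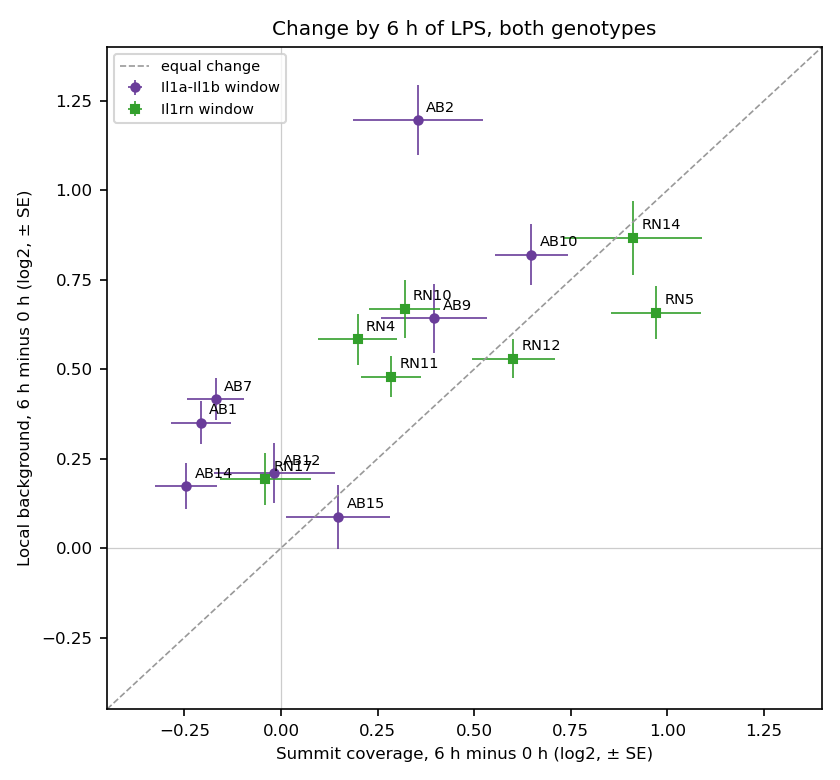
Change from 0 to 6 h of LPS in summit coverage (horizontal, log2) and in local background (vertical, log2), both scaled to the library median, for the 15 regions called in all 12 libraries, with bars of 1 SE. Circles are the Il1a and Il1b window and squares the Il1rn window, and 11 regions lie above the dashed line of equal change. AB1, AB7, AB12, AB14 and RN17 combine a summit change below 0 with a local background change above 0.

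The deposited fold (column 7) is the ratio of summit to local background, each with a small constant added, that the authors' peak caller gave each peak. It is shown next with its −log10 q (column 9). Both belong to their own list and are described without a test. At AB7 the fold was 12.7 ± 0.51 at 0 h and 8.50 ± 0.10 at 6 h, at AB1 13.1 ± 0.29 and 9.00 ± 1.5 and at AB14 13.2 ± 0.65 and 9.89 ± 0.35 (mean ± SD, n = 4 libraries each). No library at 6 h reached the lowest fold at 0 h at these 3 regions, as at 12.6% of all regions tested. AB10 kept a fold of 11.8 ± 0.44 at 0 h and 11.5 ± 0.76 at 6 h, and AB2 had 8.45 ± 2.4 and 5.48 ± 0.61. In the Il1rn window RN5 had folds of 7.5, 8.14, 8.24 and 5.02 at 0 h. Its folds at 6 h, 8.51, 9.18, 9.19 and 9.51, all exceeded them, which held for no other region of that window called in all 12 libraries and for 7.6% of all such regions. RN4 went the other way, with 8.62 ± 1.0 and 6.68 ± 0.33. RN10, RN11 and RN12 had 12.8 ± 0.50, 9.87 ± 0.44 and 5.19 ± 0.62 at 0 h. At 6 h these were 11 ± 1.7, 8.66 ± 0.80 and 5.40 ± 0.52.

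The −log10 q, which grows with depth as well as with fold, ran at AB7 from 55.8 to 79.9 at 0 h, 92.4 to 107 at 2 h and 55.4 to 75.0 at 6 h. AB10 had 45.3, 43.4, 32.2 and 27.1 at 0 h and 58.2, 66.8, 88.0 and 58.7 at 6 h. RN5 had 21.3, 28.4, 24.5 and 8.8 at 0 h and 46.5, 49.7, 69.7 and 56.6 at 6 h. For both, all values at 6 h exceeded those at 0 h.

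Few regions of the windows were called in 1 genotype alone, as in the series as a whole. At 0 and 2 h no region of the windows was called in both libraries of one genotype and neither of the other. At 6 h 1 region, RN6, was called in both WT libraries, at 56.4% and 54.7% of the library median, and in neither KO library. RN6, at 24170864 to 24171279, was also called in WT 0 h replicate 2, KO 0 h replicate 2 and WT 2 h replicate 1, with folds of 3.19 to 4.25 in all. Of all regions, 2.45%, 1.34% and 1.2% were called in WT alone at 0, 2 and 6 h, and 0.505%, 1.22% and 1.91% in KO alone, so 0, 0 and 1 of 37 are near the background. Without 1 library the counts reached 3 at 0 h (without WT 0 h replicate 1), 2 at 2 h (without either WT library or the second KO library of that time) and 3 at 6 h (without either WT library or KO 6 h replicate 2). Depth was lowest in the KO libraries at 0 h.

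Over all times, 1 of the 15 regions differed in coverage between genotypes. RN14 was higher in KO by 0.61 on the log2 scale (SE 0.15, limma adjusted p = 0.042), where 0.0841% of all regions were higher in KO and 0.121% lower. Averaged over the 6 libraries of a genotype it stood at 70.8 ± 19% in KO and 49.2 ± 24% in WT (SD). KO libraries were above WT libraries at 0 h and at 2 h, and the genotypes overlapped at 6 h. The call is weak: leaving out any 1 of 8 of the 12 libraries lost it. An exact permutation within times gave p = 0.019 before and 0.65 after adjustment. With 2 libraries per group this permutation has few arrangements. Its adjusted p could hardly pass over all regions tested, so it does not decide the call. At a single time RN14 did not pass, with 0.74 at 0 h (adjusted p = 0.23), 0.88 at 2 h (adjusted p = 0.63) and 0.20 at 6 h (adjusted p = 0.96).

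Among the other regions, some had an interval of the genotype difference over all times close around 0. It was −0.08 to 0.16 at AB7, −0.15 to 0.16 at AB10, −0.13 to 0.25 at RN5 and −0.14 to 0.16 at RN10 (95%, log2). Means over a genotype lay further apart elsewhere, without passing. AB9 had 82.4 ± 17% in WT and 93.4 ± 13% in KO, and RN4 123 ± 21% and 138 ± 19% (SD). RN17 was lower in KO, at 97.3 ± 13.5% against 108 ± 8.8% in WT. RN4 was 0.49 higher in KO at 0 h (SE 0.14), which did not pass over all regions (adjusted p = 0.14). The difference between genotypes in the change by 6 h passed the limma test at 0 of the 15 regions, but also at only 0.00467% of all regions, 2 of 42811. An unadjusted p under 0.05 was found at 3, AB2, RN4 and RN12, and at 8.56% of all regions. AB2 had the largest such difference, 0.72 more in KO (SE 0.34, adjusted p = 0.55), and AB10 had 0.29 (SE 0.19, adjusted p = 0.69).

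Within WT alone 1 region around Il1a and Il1b (AB10) and 5 around Il1rn (RN4, RN5, RN10, RN11 and RN14) rose by 6 h and 0 fell, where 9.51% of all regions were higher and 11.6% lower. Within KO alone AB2, AB10, RN5 and RN12 rose and AB1 and AB14 fell, where 9.41% were higher and 16.6% lower. Passing in 1 genotype and missing in the other does not by itself show a difference between them. The test of that difference passed at none of these regions. It passed at only 0.00467% of all regions, lower in KO, so its failure does not show that the genotypes were alike. RN4, at a limma adjusted p = 0.52 for that difference, had 0.43 in WT and −0.04 in KO.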

How the data were processed

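ATAC-seq peak lists of 12 libraries were analysed, called by the authors on each library alone. The submitters' processing notes name the aligner Bowtie2 (2.1.0), the duplicate tool Picard, the peak caller MACS2 and the build mm9. Each deposited peak was read in the standard narrowPeak layout, with a fold, a −log10 p, a −log10 q and a score. The fold was taken as the ratio of summit coverage to local background, each with a small constant added. The authors' score was not used. Coverage and background were recovered from fold and −log10 p, matching the deposited p for 100% of peaks. Regions called in all 12 libraries were fitted with limma 3.58.1 (R 4.3.3, 6 group means, trend), with Python 3.11.15 for the rest, and the scripts were tested on simulated data. Alternatives were other scalings, thinning, equal list lengths, −log10 q of at least 5, exact permutation and leaving out each library. Members, windows and rules were chosen with earlier results of these data known. Values in every library are given for regions called in all 12 libraries, gained, lost or separated by genotype. A planned permutation test of peaks per window is not given, since the windows were chosen knowing results. Libraries of a group may be technical replicates, so p-values measure the spread between these samples. Same-numbered libraries did not deviate together in scaled summit coverage (correlations −0.016 to 0.050 over 15 pairs of groups), and the main fit does not pair them. Such correlations cannot show whether same-numbered libraries share a mouse or a preparation.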

Additional observations from a re-analysis of the deposited data

Results flagged for a closer look

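Among 60 checks of opposite movement (15 regions, summit coverage and local background, 2 and 6 h), 4 had both WT libraries moving one way and both KO libraries the other, all between 0 and 2 h. Over all 42811 regions 5.34% of such checks did, so 4 of 60 is near the background. By 2 h these were 3 of 15 regions for local background and 1 of 15 for summit coverage, against 9.85% and 4.2% of all regions. The test of the difference passed at none of the 4, nor by 2 h at any other of the 42811 regions. At AB12 the local background fell in WT and rose in KO, a difference in log2 change of 0.70 (KO minus WT, SE 0.17, limma adjusted p = 0.32). At RN11 summit coverage differed by 0.28 in the same sense (SE 0.16, adjusted p = 0.93). At AB1 and AB7 the local background was lower at 2 h in KO and higher in WT, by −0.18 (SE 0.12, adjusted p = 0.58) and −0.25 (SE 0.12, adjusted p = 0.48).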

How the results depend on the processing

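Regions gained by 6 h in the Il1a and Il1b window numbered 6 as deposited, 5 at −log10 q of at least 5, 4 after thinning and 3 with equal list lengths. In the Il1rn window the 1 gained region became 0 at −log10 q of at least 5 and with equal lengths, and 1 to 2 without 1 library (2 without KO 6 h replicate 2). The region gained by 2 h became 0 after thinning or with equal lengths and 1 to 3 without 1 library (3 with WT 2 h replicate 2 left out, 2 with the first KO library at 2 h left out). Regions separated by genotype went from 0 to 2 at 2 h under thinning and under equal lengths, and from 1 to 2 at 6 h under thinning. Without 1 library they ranged 0 to 3 at 0 h (3 without WT replicate 1), 0 to 2 at 2 h and 1 to 3 at 6 h. The rise in peaks from 0 to 6 h was 6.25 in the Il1a and Il1b window, 2.5 with equal lengths and 2.84 at a constant total. In the Il1rn window it was 3, 0.5 and −0.61.

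For summit coverage at 6 h, the deposited fold was also fitted in its place. This gave 0 higher and 4 lower regions around Il1a and Il1b and 0 higher and 1 lower around Il1rn. The direction reversed at AB2 (−0.59), AB9 (−0.12), AB10 (−0.042), RN4 (−0.36), RN10 (−0.24) and RN11 (−0.19). The fold is another measure: it divides by the local background and was not rescaled to the library median. Exact permutation left 1 higher and 1 lower around Il1a and Il1b and 3 higher around Il1rn. For changes with time it exchanged the labels of all times within a genotype, so libraries of the time not compared entered it. The shares of all regions called under these alternative fits are not given here. Their counts therefore cannot be set beside a background. Scaling to background coverage or quantile normalization left 0 lower around Il1a and Il1b. Without 1 library the counts there were 1 to 3 higher (1 without WT 0 h replicate 2) and 1 to 2 lower (1 without any WT library at 0 or 6 h or KO 0 h replicate 2). By 2 h, background scaling, the fold and exact permutation each gave 0 higher around Il1rn, and leaving out 1 library gave 0 to 2 there and 0 to 1 around Il1a and Il1b (1 without WT 0 h replicate 1). The RN14 genotype call became 0 regions under background scaling, the fold, the filter on the lowest quartile and exact permutation, and 0 to 1 without 1 library. The libraries whose removal took it away were either WT library at 0 h, WT 2 h replicate 2, WT 6 h replicate 1, the first KO library at 0 h, the second at 2 h and both at 6 h, each alone. The cause of these changes was not tested. For the genotype call, exact permutation within times has few arrangements and could hardly have passed over all regions tested. A replicate block gave 2 higher and 2 lower regions at 6 h around Il1a and Il1b and 5 higher around Il1rn, as without it, and changed no other count. Summit coverage was lowest at AB2, 13 to 65 reads, and RN14, 16 to 71 reads, which limits precision there most.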
